A study of Saccharomyces cerevisiae with 6 samples.

Results

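The copy number profile of budding yeast labelled WT, 30 min after release from G1 arrest, was described along the 16 nuclear chromosomes. Its members were the 1-kb bins of the libraries labelled WT that lay outside the rDNA array and had a G1 count between 0.3 and 3 times the median. There were 11292 such bins, 97.5% of the 11579 nuclear bins listed in at least 1 of the 6 libraries of the series. The value of a bin was the log2 of its share of S-phase counts over its share of G1 counts, so that 0 is the mean of the kept genome. Positions are on sacCer3.

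The strain was W303-1a, a laboratory strain of Saccharomyces cerevisiae, and the series held 3 strain labels (WT, Orc2DeltaN200 and Orc2194E), each with 1 library at 0 min and 1 at 30 min. By the protocol common to all 6, orc2-1 was depleted while cells were held in G2/M phase by nocodazole at 15 µg/ml, after a change from YPG to YPD medium. Before and after that arrest, cells were held in G1 phase by the mating pheromone α-factor at 10 µg/ml, and release from the second hold began S phase. Cultures grew at 30°C, and azide at 0.1% stopped elongation at harvest. WT is ORC2-WT in the study's design, the others being orc2ΔN200 and orc2-I194E, and whether a strain is 1 clone is not given in the sources used here. With 1 library a side there is no replicate and no test. Intervals in parentheses are 95% intervals. They cover counting error or, for medians, are order-statistic intervals over bins or hill pairs. The latter treat bins and pairs as independent. Neighbouring bins lie on the same hills and pairs share hills, so these intervals can be too narrow.

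DNA replication starts at many origins, which the origin recognition complex marks and where it helps to load the MCM helicase in G1 phase. Origins fire at different times in S phase, and forks travel outward from each until they meet forks from a neighbour. In a population of synchronised cells, DNA near origins that fired early is therefore over-represented and forms hills, while valleys lie where forks have yet to arrive. In budding yeast, centromeres are known to replicate early and many chromosome ends late.

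The libraries labelled WT held 3310004 counts in G1 and 3354757 in S, among 3235720 to 3376203 over all 6. A kept bin held a median of 260 counts in G1 and 267 in S. The median counting standard error of a 21-kb running mean was 0.028. The copy levels of 2 genes crossed between the labels WT and orc2-I194E. At the middle bin of ORC2 the WT libraries stood at 2.64 times their flanks in G1 and 1.81 times in S, while those labelled orc2-I194E stood at 1.76 and 2.67. The first bin of LEU2, a leucine biosynthesis gene much used as a marker, crossed in the same way, from 2.57 to 1.73 against 1.61 to 2.42. The main results are therefore also given with the S libraries of WT and orc2-I194E exchanged, and with the G1 libraries exchanged. Which library belongs to which strain cannot be told apart here.

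The profile labelled WT was one of broad hills separated by deep valleys. Over 11260 bins with a 21-kb running mean, the values ran from -0.51 to 0.30, a 1.76-fold difference in relative copy number between the highest and the lowest window. The distribution leaned to the low side, with a 5th percentile of -0.30, a median of 0.0093 and a 95th percentile of 0.21. The range from the 5th to the 95th percentile was 0.51, a 1.42-fold difference. A ratio of 2 G1 libraries, WT over orc2ΔN200, had a range of 0.11 by the same steps. A bin was called early where its running mean was at least 0.15 and late where it was at most -0.15. Of the 11260 bins, 1642 were early (14.6%) and 2048 late (18.2%). In the ratio of G1 libraries 5 bins (0.0444%) passed the first limit, as did 10 (0.0889%) for WT over orc2-I194E, and 0 passed the second in either. With the G1 libraries exchanged, 1670 bins were early (14.8%) and 2088 late (18.6%). With the S libraries exchanged, 1378 were early (12.2%) and 682 late (6.06%), so the larger late share went with the S library labelled WT.

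**Figure D1:**
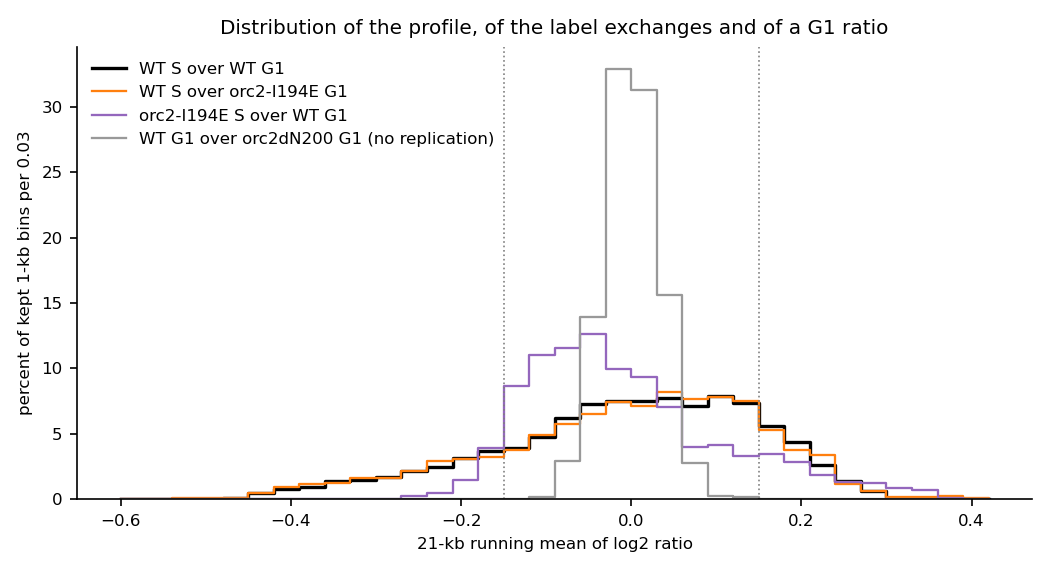
Percent of kept 1-kb bins (vertical axis) by the 21-kb running mean of the log2 ratio (horizontal axis) for WT S over WT G1 (black), both label exchanges and a ratio of G1 libraries (grey); dotted lines mark -0.15 and 0.15. The black and orange curves reach below -0.4, the purple curve ends near -0.27, and the grey curve stays close to 0.

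Hills were called as local maxima of the 21-kb running mean that fell by at least 0.2 on both sides. There were 72 hills, with heights from -0.070 to 0.30 and a median of 0.18. The ratio of the WT G1 library to the orc2ΔN200 G1 library gave 1 hill, and that to the orc2-I194E G1 library gave 0. A maximum near a chromosome end without such a fall on its outer side was not called. Chromosome IV had 11 hills, chromosomes XII and XV 7 each, and chromosomes I and VI 1 each. Of the 72 hills, 43 reached 0.15 and 6 lay below 0, so that some local maxima held less than the genome mean.

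Of the 10 highest hills, 5 lay within 20 kb of a centromere, as did 9 of all 72 hills and 613 of the 11292 kept bins. The 9 include the hill over SAT4 on chromosome III, which met the limit of 0.2 only with the bins at LEU2 kept. The hill beside PAC2, a gene of tubulin folding, lay at 164001 on chromosome V. It held 6662 S counts and 5240 G1 counts over 21 kb, a log2 ratio of 0.30 (0.25 to 0.35). The hill on the other arm, at 90001, lay over SPF1, which encodes a protein of the endoplasmic reticulum. That hill had 6677 and 5283 counts and a ratio of 0.29 (0.24 to 0.34). These neighbours are among the closest of all. The hill beside IML1, a regulator of TORC1 signalling, lay at 684001 on chromosome X with 6705 S and 5326 G1 counts and 0.29 (0.24 to 0.34). On chromosome III the highest hill lay over ATG22, a vacuolar amino acid exporter gene, at 56001, with 6557 and 5253 counts and 0.28 (0.23 to 0.33). The hill over MPH1, a DNA helicase gene, lay at 357001 on chromosome IX, 1.69 kb from the centromere, with 6538 and 5245 counts and 0.28 (0.22 to 0.33).

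The remaining hills of the first 10 stood between 0.24 and 0.30. The hill over UTP20, a gene of 18S rRNA processing, at 230001 on chromosome II had 0.26, and that over SNQ2, a multidrug transporter gene, at 466001 on chromosome IV had 0.25. The hill over YFR018C at 183001 on chromosome VI had 0.25, and the hill beside YNCJ0019C at 416001 on chromosome X had 0.24. The highest value of all, 0.30 (0.22 to 0.39), lay beside the Ty transposon gene YPR158W-B at 844001 on chromosome XVI. It rested on 11 kept bins of 21, at the edge of a gap left by the filter, and had no value with the G1 libraries exchanged. The counting intervals of all 10 overlapped, so their order is not resolved. The other 9 stood between 0.22 and 0.35 with the G1 libraries exchanged. Under the S exchange, IML1 kept 0.32 and YFR018C 0.35, whereas SPF1 stood at -0.027. Each exchange keeps a library that took part in choosing these hills.

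The lowest hills were local maxima inside late territory. The lowest lay beside HSP42, a small heat shock protein gene, at 806001 on chromosome IV, with 4242 S and 4326 G1 counts and a ratio of -0.070 (-0.13 to -0.0079). The hill over SMC6, a subunit of the Smc5/6 complex, at 888001 on chromosome XII had -0.040. The hills over DCS2 on chromosome XV (-0.038), over RAD50, a double-strand break repair gene, on chromosome XIV (-0.031) and over ARO1, an aromatic amino acid synthesis gene, on chromosome IV (-0.026) came next. Each rose by 0.23 to 0.33 above its surroundings while staying below the genome mean. The window at SMC6 stood at 0.19 with the S libraries exchanged, and the other 4 between -0.084 and -0.073.

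**Figure D2:**
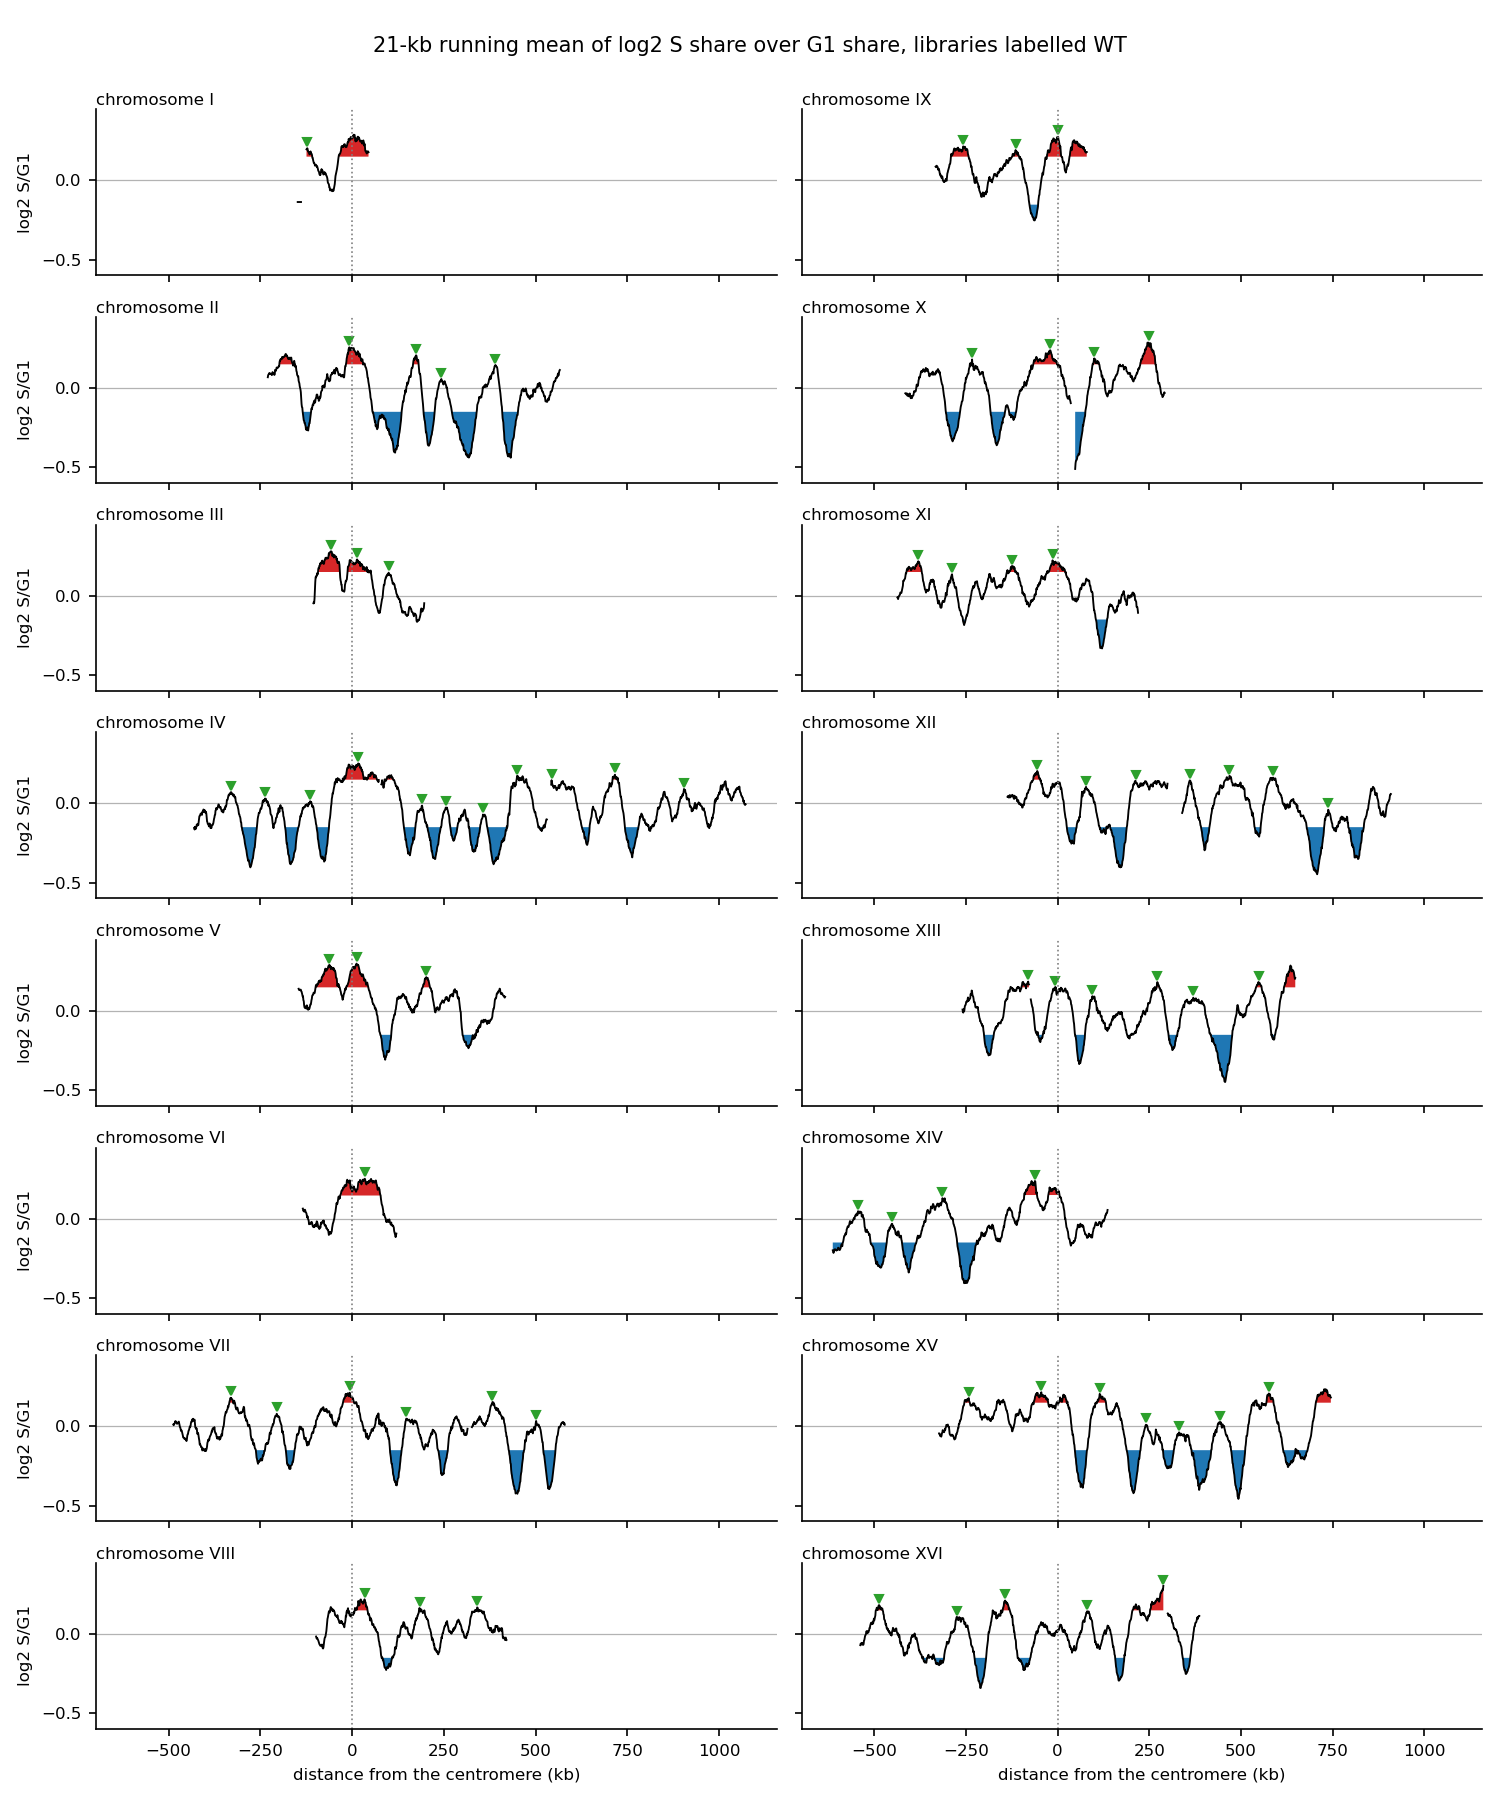
The 21-kb running mean of log2 S share over G1 share (vertical axis) against distance from the centromere in kb (horizontal axis, dotted line at 0), 1 panel per chromosome, libraries labelled WT. Red marks windows of at least 0.15, blue windows of at most -0.15, green triangles the 72 hills, and breaks are windows with too few kept bins; red sits around most centromeres and blue is absent from chromosomes I and VI.

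Hills were spaced widely and unevenly. Over the 56 pairs of neighbours the median spacing was 132.5 kb (119 to 150), with quartiles of 101.75 and 173.25 kb. The closest pair was MSH6, a mismatch repair gene, and ARO1 on chromosome IV at 65.0 kb. The next closest were MIS1 and GRS1 on chromosome II (69.0 kb), ATG22 and SAT4 on chromosome III (72.0 kb), YML045W and TRM12 on chromosome XIII (73.0 kb), and SPF1 and PAC2 (74.0 kb). The hill over SAT4, at 0.23, had a prominence of 0.20 against the valley over NFS1. That valley rose to 0.11 without the 4 bins at LEU2, so this hill and its pair depend on those bins. Without the bins at ORC2 and LEU2 there were 71 hills. The hill over YML045W rested on 13 kept bins of 21. The median spacing was 135 kb over 51 pairs with the G1 libraries exchanged and 219 kb over 19 pairs with the S libraries exchanged. The spacing depends on the limit for a hill: a prominence of 0.1 gave 110 hills at a median of 94.5 kb, and one of 0.3 gave 46 at 152 kb.

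The widest spacings mostly held smaller hills that missed the limit. The widest was 252 kb on chromosome XIV, between APC1, a subunit of the anaphase-promoting complex, and YNCN0011W. This spacing contained 2 minor hills of a prominence between 0.1 and 0.2, at YNL092W (-0.037) and at the forkhead transcription factor gene FKH2 (0.070). The 235 kb between TOM20 and YNCG0042C on chromosome VII held 2, at YGR111W (-0.020) and at the thiamine synthesis gene THI4 (0.064). On chromosome XVI, the 223 kb from GCR1 to SRO7 held a minor hill at ECM23 (0.076), and the 212 kb from HFI1 to SNR17B held one at TPK2 (0.0042), a protein kinase A subunit gene. The 213 kb between YJL113W and YNCJ0019C on chromosome X held 0. Of the 13 pairs closer than 100 kb, 0 held a minor hill, against 5 of the 6 pairs at 200 kb or more.

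Valleys between neighbouring hills lay mostly below the genome mean. The depth of a valley, the mean height of its 2 hills minus its lowest value, had a median of 0.41 (0.38 to 0.46), a 1.33-fold difference in relative copy number, and ranged from 0.20 to 0.72. The rule for a hill, a fall of at least 0.2 on both sides, sets the lower end of that range. The lowest values themselves had a median of -0.31. In 29 of 56 valleys the lowest window was at most -0.3, and in 2 it stayed above 0. Depth with the G1 libraries exchanged was 0.44 (0.38 to 0.50), and with the S libraries exchanged 0.33 (0.28 to 0.36). Wider spacings had somewhat deeper valleys. The median depth was 0.33 for the 13 pairs under 100 kb, 0.43 for the 22 pairs from 100 to 150 kb, 0.45 for the 15 pairs from 150 to 200 kb and 0.46 for the 6 wider ones. Across the 56 pairs, spacing and depth had a Pearson's r of 0.33 and a Spearman's rho of 0.36. Spacing and the lowest value had -0.14 and -0.10. The pairs share hills and libraries, and these values only describe them.

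**Figure D3:**
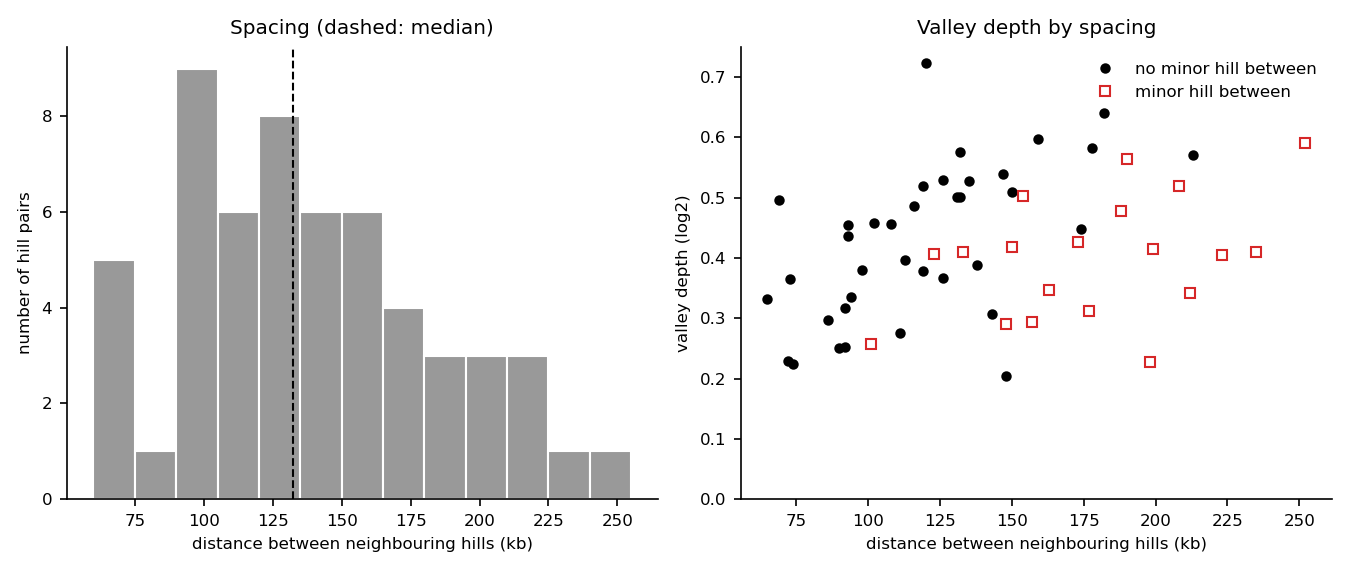
Left, number of pairs of neighbouring hills by their distance in kb, with the median of 132.5 kb dashed; right, valley depth on the log2 scale against the same distance for the 56 pairs, open squares where a minor hill lies between. Depths run from 0.20 to 0.72, and the open squares lie at distances of about 100 kb and more.

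The deepest valley was at 484001 on chromosome X over RBH2, between YNCJ0019C and KCH1. It had 2147 S and 2966 G1 counts, a value of -0.51 (-0.59 to -0.43) and a depth of 0.72. It lay at the edge of a gap and rested on 11 kept bins. The second, at 355001 on chromosome II over UBP14, a ubiquitin protease gene, had 4859 and 6369 counts, -0.41 and a depth of 0.64. This window takes in ORC2, whose copy level differed between the libraries, and the value was -0.38 without the 5 bins at ORC2. The valley over AKR2 at 395001 on chromosome XV had 4536 and 5756 counts, -0.39 and a depth of 0.60. That over FYV6 at 374001 on chromosome XIV had 4157 and 5364 counts, -0.41 and a depth of 0.59. The valley over MTF1, a mitochondrial transcription factor gene, at 725001 on chromosome XIII had 4075 and 5390 counts, -0.45 and a depth of 0.58.

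The other valleys of the first 10 lay at DSE3, TRL1, SPO73, AMN1 and CEX1, with depths from 0.53 to 0.58. AMN1, at 556001 on chromosome II, had -0.44 between GRS1, the glycyl-tRNA synthetase gene, and the hill beside MCM7. TRL1, the tRNA ligase gene on chromosome X, had -0.36. The 10 lowest points stood between -0.53 and -0.30 with the G1 libraries exchanged. Under the S exchange they stood between -0.22 and -0.055, below the genome mean at all 10, where 59.9% of all windows lay below 0. Each exchange keeps a library that took part in choosing these valleys, so neither range is independent of the choice.

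The shallowest valleys were of different kinds. The shallowest by depth, 0.20, was at 490001 on chromosome XII over RRT15, at the right edge of the excluded rDNA array. Its hills, over REA1 and YLR177W, stand on either side of that array, which was not measured here. The valley beside EDC3, an mRNA decapping gene, at 126001 on chromosome V stayed at 0.071 between the high hills of SPF1 and PAC2. That over the retrograde signalling gene RTG1 on chromosome XV had -0.031. The valley over NFS1 on chromosome III, at 0.025, takes in LEU2, and the value was 0.11 without the 4 bins at LEU2. The valley beside SLP1 on chromosome XV had a lowest value of -0.26 and a depth of 0.25, between hills of 0.011 (AFI1) and -0.038 (DCS2).

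Flanks of hills had a median slope of 0.068 log2 units per 10 kb over 112 flanks, with quartiles of 0.049 and 0.094. The steepest fell from MIS1 on chromosome II to EXO84, an exocyst gene, at 0.16 per 10 kb over 35 kb. The flank of TOM20 on chromosome VII towards VHT1 had 0.16 over 26 kb, and that of SMC6 on chromosome XII towards MDM30 had 0.14 over 30 kb. KCH1 on chromosome X (0.13) and REA1 on chromosome XII (0.13) followed. Of the 42 hills with a measured flank on each side, 13 had one flank at least 2 times as steep as the other, and the median ratio was 1.70. A slope is a straight line from hill to lowest window, so a flank across a minor hill or a gap can come out shallower. The highest ratio, 8.34, was at REA1, whose right flank crossed the excluded rDNA array. The median left flank had 0.075 and the median right flank 0.067. The median slope over all flanks was 0.033 with the S libraries exchanged and 0.066 with the G1 libraries exchanged.

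Early stretches, runs of at least 10 kb of early windows, numbered 45 and covered 1553 of the 12012 nuclear kb. Their median length was 31 kb. Of the 45, 10 held a centromere, of 16 in the genome, while 7 reached within 30 kb of a chromosome end. The longest, 109 kb from 117001 to 226000 on chromosome VI, ran from CDC4, an F-box gene of the cell cycle, to PHO4, a phosphate response regulator, with 59 genes and a mean of 0.22. The second, 82 kb from 115001 to 197000 on chromosome I, held 43 genes, a mean of 0.24 and the highest window of that chromosome, 0.29 beside SWD1 at 156001. This maximum was not a called hill, as the profile did not fall by 0.2 before the right end. On chromosome V, 65 kb from 53001 to 118000 around SPF1 held 39 genes at a mean of 0.23. On chromosome X, 65 kb from 370001 to 435000 held 40 genes at 0.19, and on chromosome IV, 62 kb from 428001 to 490000 around the centromere held 38 genes at 0.21.

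TRP1, a tryptophan synthesis gene that lies beside the well studied origin ARS1, falls in the chromosome IV stretch. Its 21-kb window held 6302 S and 5180 G1 counts, a value of 0.24 (0.18 to 0.29). All 45 early stretches had a mean above 0 with the G1 libraries exchanged, where 53.1% of all windows lay above 0. With the S libraries exchanged 30 did, where 40.1% of all windows lay above 0. Each exchange keeps 1 of the 2 libraries that chose the stretches, so neither count is independent of the choice. Around SPF1 the mean became -0.024 with the S libraries exchanged, while on chromosome VI it was 0.25.

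Late stretches numbered 63 and covered 2017 of the 12012 nuclear kb, with a median length of 30 kb. None held a centromere, and 2 reached within 30 kb of an end. The longest, 79 kb from 294001 to 373000 on chromosome II, held 46 genes from ETR1 to TIP1, ORC2 among them, at a mean of -0.27. Without the 5 bins at ORC2 the mean was -0.25. The second, 68 kb from 510001 to 578000 on the same chromosome, began at MEC1, the checkpoint kinase gene, and held 35 genes at -0.31. On chromosome XIII, 59 kb from 686001 to 745000 around MTF1 held 30 genes at -0.31. On chromosome XIV, 53 kb from 356001 to 409000 held 29 genes at -0.31, and on chromosome XV, 53 kb from 692001 to 745000 around TOA1, a general transcription factor gene, held 24 at -0.30. A further 53 kb on chromosome IV, from 818001 to 871000, held 30 genes at -0.29.

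Late stretches had a mean below 0 at all 63 places with the G1 libraries exchanged and at 58 with the S libraries exchanged, where 46.9% and 59.9% of all windows lay below 0. The same limit on independence holds here. The 5 exceptions lay around DIE2, PDC2, RPD3, TAP42 and CST9, with means from 0.0079 to 0.14. Early and late stretches had much the same gene content: 5.49 genes per 10 kb in early ones, 5.35 in late ones and 5.35 over the nuclear genome.

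DNA around centromeres stood above the genome mean at 30 min, and the excess faded with distance. The median of bins was 0.19 (0.17 to 0.21) within 10 kb of a centromere, 0.17 from 10 to 20 kb, 0.11 from 20 to 30 kb, 0.10 from 30 to 40 kb, 0.076 from 40 to 50 kb and 0.034 (0.0022 to 0.073) from 50 to 60 kb. Within 20 kb, all 16 centromeres had a median above 0 and 12 reached 0.15. The lowest was that of chromosome XVI at 0.011, and the next were chromosomes XII and X, both at 0.11. A hill lay within 20 kb of 9 of the 16 centromeres, that of chromosome III among them through the SAT4 hill, which depends on the bins at LEU2. At chromosome ends no such gradient was seen as labelled: the median was 0.0034 (-0.054 to 0.046) within 10 kb, 0.053 from 10 to 20 kb and 0.026 from 20 to 30 kb.

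Ends differed among themselves. Of the 28 ends with at least 10 kept bins within 30 kb, 17 had a median above 0 and 3 reached 0.15: the right ends of chromosomes XIII (0.30), XV (0.22) and IX (0.19). The left ends of chromosomes XIV (-0.19) and IV (-0.16) and the right end of chromosome III (-0.14) were the lowest. Within 10 kb the values were 0.17 at centromeres and 0.061 at ends with the G1 libraries exchanged. Under the S exchange they were 0.044 and 0.17, the other way round. From 40 to 50 kb they were then 0.026 at centromeres and 0.073 at ends. The absence of a gradient at ends thus goes with the S library labelled WT, and the centromere gradient was smaller under that exchange.

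Short chromosomes stood above long ones. Chromosome I had the highest median, 0.14 (0.10 to 0.18), followed by chromosome IX with 0.11, VI with 0.090, V with 0.080 and III with 0.079. Chromosomes XIV (-0.055), IV (-0.044) and II (-0.039) were the lowest. On chromosome I 52.9% of windows were early and 0% late, whereas on chromosome IV 9.78% were early and 25.3% late. Across the 16 chromosomes, length and median had a Pearson's r of -0.84 and a Spearman's rho of -0.83, and r was -0.80 without the 2 chromosomes farthest from the median length. The 16 values share the same 2 libraries. The r was -0.92 with the G1 libraries exchanged and -0.54 with the S libraries exchanged. For the ratio of G1 libraries, WT over orc2ΔN200, it was 0.45. For that of WT over orc2-I194E it was -0.74, with medians from -0.023 on chromosome IV to 0.064 on chromosome III. The WT G1 library is the numerator of this ratio but the denominator of the profile, where a higher G1 share gives a lower value. The median of chromosome III was 0.079 as labelled and 0.15 with the G1 libraries exchanged. The part of the difference between G1 libraries in the relation with length was not tested.

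**Figure D4:**
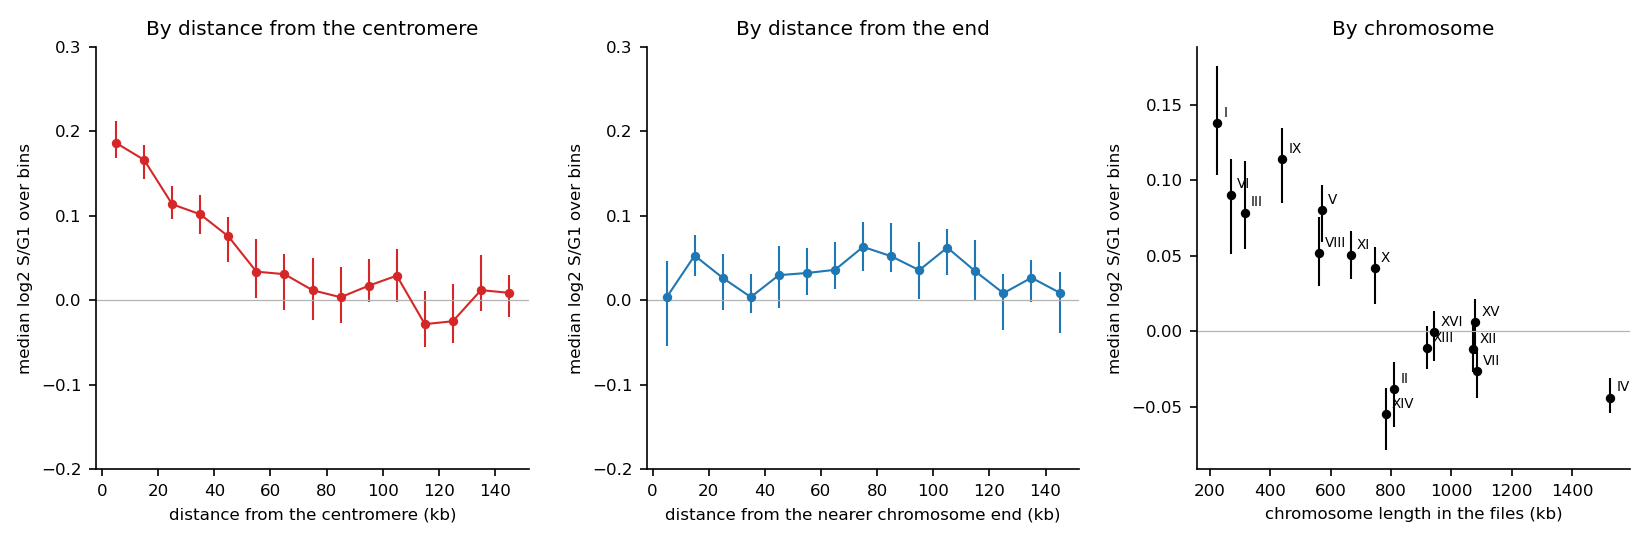
Median log2 S over G1 of kept bins (vertical axes) in 10-kb classes of distance from the centromere (left) and from the nearer chromosome end (middle), and for each chromosome against its length in kb (right); bars are 95% order-statistic intervals over bins. The centromere curve falls from 0.19 to near 0 by about 60 kb, the end curve stays between 0.0034 and 0.063, and the 8 shortest chromosomes all lie above 0.

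Genes were read at the 21-kb window over their midpoint, so that neighbours share bins. Of 6219 genes with a value, 931 were early (15%) and 1119 late (18%), with a median of 0.012. The core histone genes, which lie in 4 divergent pairs and supply the histones for new chromatin, were the highest list, with a median of 0.19. Of the 8, 6 were early and 0 late. HTB2 and HTA2 on chromosome II had 6544 and 6208 S counts against 5327 and 5101 G1 counts, and values of 0.25 and 0.24. HHF1 and HHT1, on the other side of the same centromere, had 4163 and 4027 S counts against 3459 and 3350, and 0.22 and 0.22. HTB1 and HTA1 on chromosome IV had 5961 and 5879 against 5119 and 5099, and 0.17 and 0.16. HHT2 and HHF2 on chromosome XIV, with 4129 and 4418 against 3693 and 3975, stood just under the limit at 0.13 and 0.12. The pairs lay 5.09 to 26.0 kb from a hill. Their median was 0.17 with the G1 libraries exchanged and 0.035 with the S libraries exchanged, when that of all genes was -0.032.

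tRNA genes had a median of 0.086, with 74 of 274 early (27.0%) and 31 late (11.3%), against 15% and 18% of all genes. YNCE0005W and IMT4 on chromosome V (0.27 and 0.26) and TGA1, YNCA0006C and SUP56 on chromosome I (0.25 to 0.27) were the highest. YNCN0006W on chromosome XIV (-0.41) and the initiator tRNA gene IMT1 on chromosome XV (-0.38) were the lowest. The median of the list was -0.020 with the S libraries exchanged. The 137 cytosolic ribosomal protein genes had a median of 0.041, with 19 early (13.9%) and 12 late (8.76%). RPL4B on chromosome IV (0.23), RPL16A on chromosome IX (0.21) and RPL27A on chromosome VIII (0.21) were the highest, and RPS22B on chromosome XII (-0.44) and RPS10B on chromosome XIII (-0.34) the lowest.

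The genes of the replication machinery were spread over the whole range. Of the 26 licensing and firing genes 5 were early and 5 late (19.2% each), near the 15% and 18% of all genes, with a median of 0.026. MCM3, a helicase subunit gene, had 0.29 beside the SPF1 hill. PSF1, of the GINS complex, had 0.23, SLD7 had 0.19, and DBF4 and CDC7, which encode the kinase that fires origins, had 0.16 and 0.16. ORC2 (-0.36, or -0.32 without its own bins), DPB11 (-0.30) and ORC5 (-0.24) were the lowest. MCM7, beside a hill of chromosome II, had 0.14. Of 22 polymerase and fork genes 0 were early (0%) and 3 late (13.6%), with a median of -0.036, so the late share was below that of all genes. The late ones were POL3 (-0.34) and POL2 (-0.29), which encode the catalytic subunits of polymerases δ and ε, and TOF1 (-0.17) of the fork protection complex.

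The shorter lists were mixed, and their shares stand beside 15% early and 18% late for all genes. Of 12 checkpoint and nucleotide synthesis genes 4 were early (33.3%): RNR3 (0.17), RAD9 (0.17), RNR2 (0.17) and SML1 (0.15). DUN1, a checkpoint kinase gene on chromosome IV, was the late one (8.33%) at -0.38. Of 9 cyclin genes CLB2 (0.16), CLB5 (0.16) and CLN2 (0.15) on chromosome XVI were early (33.3%), and CLB3 (-0.36) and CLB4 (-0.19) late (22.2%). Of 7 kinetochore genes CBF1 (0.15) was early (14.3%) and 0 were late. Of 86 genes of the PAU, COS, HXT, FLO, THI, AAD and YRF1 families, many of them near chromosome ends, 39 had a value. Of these 9 were early (23.1%) and 3 late (7.69%), with a median of 0.077. As labelled, the checkpoint, cyclin and kinetochore medians were 0.065, 0.051 and -0.015. With the S libraries exchanged the medians were -0.012 (checkpoint), -0.063 (cyclin), -0.042 (kinetochore) and -0.021 (families), when that of all genes was -0.032.

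**Figure D5:**
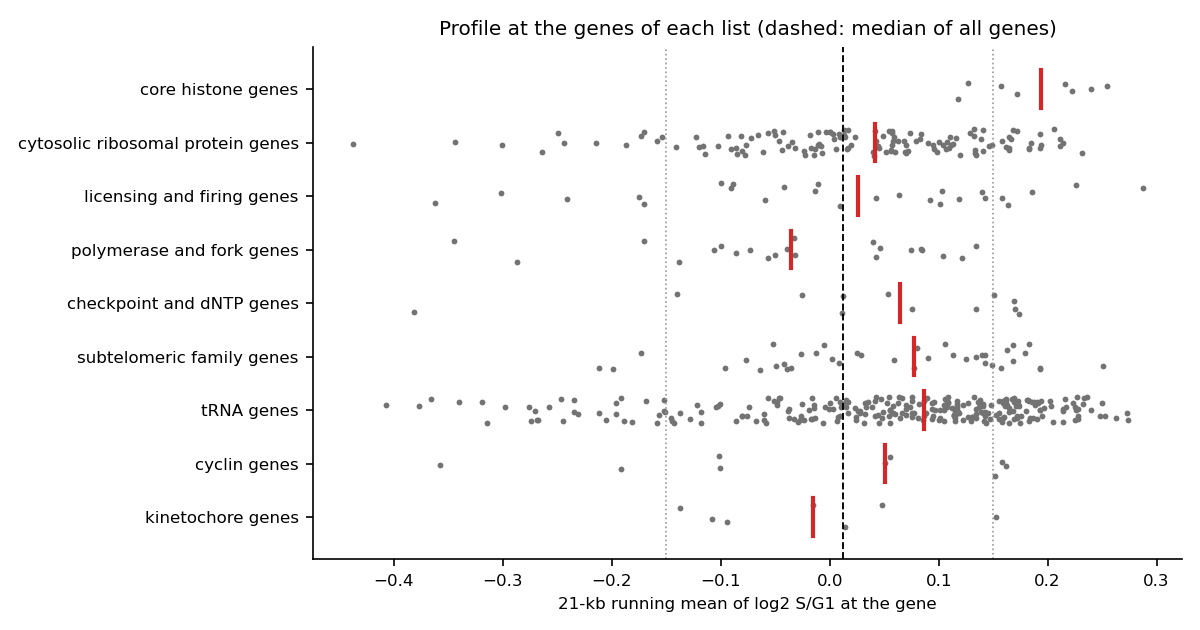
The 21-kb running mean of log2 S over G1 at each gene (horizontal axis), 1 row per list with 1 point per gene and the list's median in red; the dashed line is the median of all genes, 0.012, and dotted lines mark -0.15 and 0.15. All 8 histone genes lie above 0.1, while the licensing, polymerase and checkpoint lists reach below -0.28.

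The profiles of the other strain labels had fewer, more distant hills. By the same steps the profile labelled orc2ΔN200 had 34 hills at a median spacing of 202 kb, a median valley depth of 0.33 and a slope of 0.033 per 10 kb. That labelled orc2-I194E had 30 hills, a spacing of 233 kb, a depth of 0.33 and a slope of 0.030. Early and late bins made up 10.9% and 6.55% of the profile labelled orc2ΔN200, and 13.5% and 8.93% of that labelled orc2-I194E. The orc2ΔN200 profile shares no library with that labelled WT. Of the 72 WT hills, 18 (25%) had an orc2ΔN200 hill within 10 kb, as had 6.03% of kept bins. Of the 34 orc2ΔN200 hills, 18 (52.9%) had a WT hill within 10 kb, as had 12.6% of kept bins. In the orc2ΔN200 profile 60 of the 63 late stretches had a mean below 0, where 56.7% of all windows lay below 0. There 33 of the 45 early stretches had a mean above 0, where 43.3% of all windows did. Without replicates these differences between profiles were not tested.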

How the data were processed

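The deposited files give, for each library, whole-number counts in 1-kb bins. A bin without any count has no line. Tools credited by the submitters' processing notes, without roles, were bedtools 2.31.0, SAMtools 1.18, R 4.3.0, Picard 2.27.5 and Bowtie2 2.5.3, on sacCer3. What was counted, and how duplicates were handled, is not given in the sources used here.

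Shares were taken over kept bins (mitochondrial bins and chromosome XII 451001 to 490000 out, S count above 0). The log2 ratio was averaged over a centred 21 kb with at least 11 kept bins. Counting intervals used Poisson errors, and medians used binomial order-statistic intervals. Both cover neither culture nor library variation. Genes came from a table of assembly R64. Centromeres were placed between the innermost genes of the arms. Annotated origins and consensus sequences were not analysed here. Computations used SciPy 1.17.1, pandas 2.3.3 and numpy 2.4.6 under Python 3.11.15, figures used matplotlib 3.10.9, and the steps were tested on simulated data.

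The members, limits and lists were chosen with earlier results of these data known. Named were the genes over or nearest to the 10 highest and 5 lowest hills, the 10 deepest and 5 shallowest valleys, the 5 longest stretches of each kind, the 5 widest and narrowest spacings, the 5 steepest flanks, all core histone genes, up to 5 highest and lowest members of other lists, and ORC2, LEU2, TRP1 and MCM7. Others, such as FKH2, SWD1, the sixth late stretch and the single ends and chromosomes, were chosen after their values were seen. Alternatives changed labels, G1 denominator, window, window value, filter, prominence, limits and stretch length.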

Additional observations from a re-analysis of the deposited data

How the results depend on the processing

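Of 119 recomputed values, 93 stayed within the interval of the reported value or, for counts, within 1.5 times it. With the G1 libraries summed, the stricter or no G1 filter, the ratio of summed counts, or without the bins at ORC2 and LEU2 (an alternative added after seeing the data), every recomputed value did so. The range of chromosome medians and the excess of centromeres over ends use single bins. The window sizes and the ratio of summed counts therefore could not change them, and they are among the 93. Intervals over bins treat neighbouring bins as independent, so whether a value stayed within its interval is a rough measure. Exchanging the S labels of WT and orc2-I194E moved most. It gave 682 late bins, 25 late stretches, a profile range of 0.38, 32 hills, a spacing of 219 kb, a depth of 0.33, a slope of 0.033, a range of chromosome medians of 0.26 (0.19 as labelled) and a histone median of 0.035. The excess of centromeres over ends, 0.14 as labelled, turned to -0.094. Exchanging the G1 labels moved the profile range alone, to 0.53. An 11-kb window gave a range of 0.54 and a slope of 0.088, and a 31-kb window 0.48 and 0.059. A prominence of 0.1 gave 110 hills, a spacing of 94.5 kb and a depth of 0.31, and one of 0.3 gave 46, 152 kb and 0.50. A limit of 0.1 gave 3052 early bins in 72 stretches and one of 0.2 gave 664 in 19, while late counts stayed within 1.5 times. A shortest stretch of 20 kb left 29 early stretches. For these settings of window, prominence and limit the direction of change follows from the setting; the cause of the change with the S labels was not tested. With a median counting error of 0.028 per window, differences between windows under about 0.1 are not resolved. No paired analysis was possible because each group has 1 library.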

Other observations

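Outside the profile, the rDNA array on chromosome XII, which encodes the ribosomal RNAs, held 19381 S and 19691 G1 counts in the libraries labelled WT. Relative to kept bins this is a log2 ratio of -0.067 (-0.096 to -0.038). In the libraries labelled orc2ΔN200 it was 0.26 (0.24 to 0.29), from 21717 and 18661 counts, and in those labelled orc2-I194E 0.30 (0.28 to 0.33), from 22989 and 19520. Counts in the window of the array thus stood just below the genome mean under the WT label and above it under the other labels, with 1 library a side and no test. The window held 0.670% of nuclear counts in the WT G1 library and 0.640% in the WT S library. How reads from its repeats were counted is not given in the sources used here, so the ratio need not measure the copy number of the array. Label exchanges were not computed for it.

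Mitochondrial DNA took 11.2% of all counts in the WT G1 library and 9.68% in the WT S library. Relative to kept nuclear bins it fell by 0.23 on the log2 scale. In the libraries labelled orc2ΔN200 it was higher in S than in G1 by 0.24, from 7.95% to 9.25% of all counts. In those labelled orc2-I194E it was higher by 0.033, from 9.69% to 9.88%. The share in the WT S library, 9.68%, is close to the 9.69% of the orc2-I194E G1 library. The fall under the WT label therefore depends on which G1 library is used. Label exchanges were not computed for mitochondrial DNA.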
